A study of Homo sapiens with 16 samples.

Results

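Of the 58721 genes in the count table, 9 genes that carry, amplify or restrain interferon signals were followed: the receptor chains IFNAR1 and IFNLR1, the signal transducers STAT2 and IRF9, the interferon regulatory factors IRF1, IRF2 and IRF7, and the inhibitors SOCS1 and USP18. They were taken by gene name, and all 9 were in the table. In RefSeq (GRCh38.p14) STAT2 lies at chr12:56341597-56360107, IRF9 at chr14:24161265-24166565, IRF7 at chr11:612555-615950, IRF1 at chr5:132481609-132490773, IRF2 at chr4:184387729-184474550, SOCS1 at chr16:11254417-11256204, USP18 at chr22:18150170-18177397, IFNAR1 at chr21:33324395-33359864 and IFNLR1 at chr1:24154168-24187289. RNA was measured by 3' end sequencing in 16 libraries of 2 human bladder cancer cell lines. RT112, of the luminal type, was grown in RPMI and SCaBER, of the basal type, in DMEM, each with 10% serum, so that line and medium cannot be told apart. Every library came from cells given a small interfering RNA (siRNA, 10 nM per the labels) by lipid transfection. Each line received siFOXA1.1 or siFOXA1.2, both directed against the transcription factor FOXA1, or the control siRNAs siControl.1 or siControl.2, with 2 experiment batch replicates of each. No untransfected cells were analysed here. The labels do not say that the replicates came from separate cultures beyond calling them experiment batches, so p-values measure the spread between these libraries.

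Type I interferons bind a receptor made of IFNAR1 and IFNAR2, and type III interferons one made of IFNLR1 and IL10RB. The kinases JAK1 and TYK2 on these receptors phosphorylate STAT proteins, and STAT2 with IRF9 forms part of the ISGF3 complex, which binds the interferon-stimulated response element of target genes. In epithelia such as the urothelium this pathway is known for antiviral defence. STAT2, IRF9, IRF7 and USP18 are themselves known interferon targets, so the transducers and a restraint of the pathway are part of its output.

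The sequence before the gene start is shown for STAT2 and IRF9, which rose under siFOXA1.1 in at least one line, and for IRF1 and SOCS1, for which no change was called. All 4 are RefSeq sequences of GRCh38.p14, written 5' to 3' on the strand of the gene, and cover the 250 bases before its start. They lie at chr12:56360108-56360357 on the minus strand for STAT2, chr14:24161015-24161264 on the plus strand for IRF9, chr5:132490774-132491023 on the minus strand for IRF1 and chr16:11256205-11256454 on the minus strand for SOCS1. Capitals mark matches to the motifs named after the sequences.
STAT2: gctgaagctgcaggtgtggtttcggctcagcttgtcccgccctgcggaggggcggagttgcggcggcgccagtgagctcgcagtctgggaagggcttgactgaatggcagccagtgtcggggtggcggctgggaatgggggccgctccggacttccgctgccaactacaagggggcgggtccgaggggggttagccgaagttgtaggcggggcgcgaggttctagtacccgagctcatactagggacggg
IRF9: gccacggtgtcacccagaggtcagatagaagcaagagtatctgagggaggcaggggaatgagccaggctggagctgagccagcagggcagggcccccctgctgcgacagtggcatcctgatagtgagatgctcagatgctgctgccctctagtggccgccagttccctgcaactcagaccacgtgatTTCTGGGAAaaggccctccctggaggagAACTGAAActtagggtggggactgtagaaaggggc
IRF1: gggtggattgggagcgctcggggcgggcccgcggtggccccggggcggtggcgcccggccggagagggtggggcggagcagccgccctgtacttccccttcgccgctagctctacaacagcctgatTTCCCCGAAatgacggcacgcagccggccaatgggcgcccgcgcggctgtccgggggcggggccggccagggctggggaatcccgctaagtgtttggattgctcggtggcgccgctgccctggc
SOCS1: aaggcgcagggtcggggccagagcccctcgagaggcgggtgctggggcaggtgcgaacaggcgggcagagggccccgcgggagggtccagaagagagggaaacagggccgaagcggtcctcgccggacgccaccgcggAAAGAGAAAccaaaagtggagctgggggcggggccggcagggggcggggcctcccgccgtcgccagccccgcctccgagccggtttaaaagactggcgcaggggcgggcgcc

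The motifs were chosen after the sequences had been seen and were searched on both strands of 300 bases around the start, 250 before and 50 after it. The core of the interferon-stimulated response element was written AAANNGAAA, and a shorter form for interferon regulatory factors AANNGAAA, which overlaps every match of the longer one. The gamma-activated site bound by STAT dimers was written TTCNNNGAA, and a forkhead site, the kind that FOXA1 binds, TGTTTAC. Of the 9 genes, 6 were in the promoter table, with 7 entries since IFNAR1 had 2 starts. IRF7, IRF2 and USP18 were not. Counting the base before the start as -1, IRF9 held AACTGAAA at -35 to -28 and TTCTGGGAA at -63 to -55. SOCS1 held AAAGAGAAA at -112 to -104. IRF1 held TTCCCCGAA at -124 to -116 and IFNLR1 held TTCCGGGAA at -238 to -230. The forkhead letters were found once, before the first start of IFNAR1, and STAT2 held none of the 4 motifs. Over all 35116 promoters, AAANNGAAA was in 10.48%, AANNGAAA in 22.83%, TTCNNNGAA in 7.66% and TGTTTAC in 3.42%.

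Library totals ranged from 4528513 to 7604581 counts. The limit of detection was set at 3 counts, a floor that covers counting error only. In CPM (counts scaled to a common total) it lay between 0.394 and 0.453 for RT112 libraries and between 0.434 and 0.662 for those of SCaBER. FOXA1 itself gave 266 and 195 counts under siControl.1 and 137 and 204 under siControl.2 in RT112, against 9 and 22 under siFOXA1.1 and 63 and 117 under siFOXA1.2. It fell 10.9-fold under siFOXA1.1 (log2 fold change -3.45 ± 0.47 SE, edgeR adjusted p 1.39e-05), while siFOXA1.2 gave -1.10 ± 0.39 (adjusted p = 0.215). SCaBER had little FOXA1, at 3 to 15 counts in the control libraries, 0 and 3 under siFOXA1.1 and 0 and 6 under siFOXA1.2, so that the knock-down could not be read there. Luminal markers summed to 627 to 1490 CPM in RT112 and 99.99 to 189 CPM in SCaBER, and basal markers to 162 to 463 CPM and 1846 to 3269 CPM. Of 7 leukocyte markers, PTPRC and CD3E were at 0 in all libraries and the sum reached at most 3.22 CPM in RT112 and 5.49 CPM in SCaBER. The highest single markers were LYZ in RT112, at up to 22 counts, and CD14 in SCaBER, at up to 25 counts (3.98 CPM). Mitochondrial genes held 25.7% to 28.2% of the counts under siFOXA1.1 in RT112, against 17.99% to 21.2% in the other RT112 libraries. The stromal markers summed to 54.4 to 58.1 CPM under siFOXA1.1 in RT112 and to 10.4 to 25.5 CPM in the rest of that line. In RT112 COL1A1 was highest and PECAM1 reached 11.2 CPM (median 3.17). COL1A2 reached at most 3 counts in that line, and DCN and VWF were at 0. The luminal sum was 627 to 772 CPM under siFOXA1.1 and 698 to 836 CPM under siFOXA1.2 in RT112, against 1015 to 1490 CPM in its controls, and 99.99 to 101 CPM under siFOXA1.1 in SCaBER, against 145 to 189 CPM in its controls. The basal sum in RT112 was 265 to 404 CPM under siFOXA1.1 and 394 to 463 CPM under siFOXA1.2, against 162 to 316 CPM in its controls. In SCaBER the basal sums under both FOXA1 siRNAs lay within the control range. With the mitochondrial genes left out, the same members were called under siFOXA1.1 in each line. Beyond that, the part of these differences in the results was not tested.

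The baseline was read from the 4 siControl libraries of each line. On the TPM scale, which divides counts by gene length, IFNAR1 was highest in RT112 at 44.2 ± 3.66 TPM (SD, n = 4), followed by IRF2 at 22.5 ± 4.55 and IRF1 at 12.1 ± 1.195. USP18 (4.36 ± 0.97) and STAT2 (4.29 ± 0.93) came next and overlapped each other, and SOCS1 (1.41 ± 1.404), IFNLR1 (1.34 ± 0.92) and IRF9 (0.60 ± 0.25) overlapped in the same way below them. In SCaBER IRF1 led at 93.4 ± 18.1 TPM and did not overlap IRF2 at 31.9 ± 5.37. Every further neighbour in the SCaBER order overlapped, from IFNAR1 (26.9 ± 7.08), USP18 (15.3 ± 10.8) and STAT2 (8.91 ± 3.53) to SOCS1 (3.905 ± 2.93), IRF9 (2.73 ± 1.45), IFNLR1 (2.64 ± 1.396) and IRF7 (1.16 ± 1.28). In 3' sequencing the reads of a gene do not grow with its length, so the order on this scale also carries gene length.

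**Figure D1:**
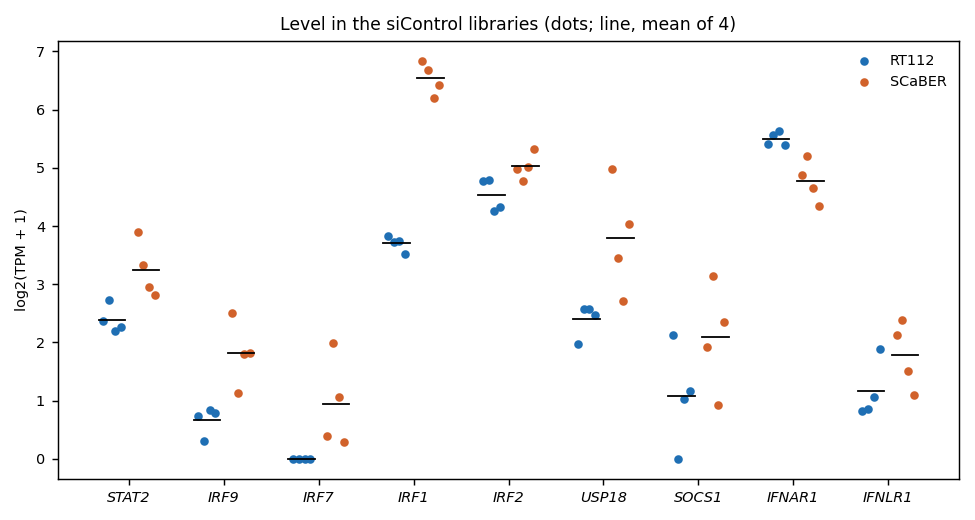
Level of each gene in the 4 siControl libraries of RT112 (blue) and SCaBER (orange) as log2(TPM + 1). Dots are libraries and lines are means, and the lines are farthest apart for IRF1, while IFNAR1 is higher in RT112.

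Between the lines, 3 of the 8 genes tested were called, in a comparison where 43.4% of all 12309 genes were. IRF1, which activates genes of antigen presentation and growth arrest, had 225 to 356 CPM in the SCaBER controls and 40.6 to 54.2 CPM in those of RT112, and was 5.85-fold lower in RT112 (log2 -2.55 ± 0.17 SE, edgeR adjusted p 2.82e-08). IFNAR1 went the other way, at 129 to 154 CPM in RT112 and 47.04 to 85.3 CPM in SCaBER (log2 1.12 ± 0.18, adjusted p 1.32e-04). USP18 was lower in RT112 (log2 -1.43 ± 0.50, adjusted p = 0.0314), with 3.29 to 5.59 CPM against 4.71 to 25.96 CPM. The USP18 ranges overlapped, and without SCaBER siControl.1 replicate 1 the value was -0.83 (adjusted p = 0.216). IRF9 (log2 -1.80 ± 0.71, adjusted p = 0.0525) and STAT2 (-0.65 ± 0.33, adjusted p = 0.121) did not pass the test, but both did with limma on log2(TPM + 1). That choice moved the median log2 value of all genes from 0.02 to -0.32, toward lower in RT112. It also moved the share of called genes that were higher from 48.9% to 28.6%. DESeq2 called IRF9 (adjusted p = 0.0381) but not STAT2. IRF2 (-0.09 ± 0.23, adjusted p = 0.797), SOCS1 (-1.02 ± 0.96, adjusted p = 0.424) and IFNLR1 (-0.59 ± 0.62, adjusted p = 0.478) were not called. IRF7, the factor that amplifies the type I response, had 0 counts in all 8 RT112 libraries. In the SCaBER controls it had 2, 19, 7 and 1 counts, 29 in all, so that 2 of the 4 libraries were at or below the floor of 3 counts and 1 library held most of the counts. IRF7 did not pass the filter on low counts in this comparison. With no filter edgeR called it lower in RT112 (adjusted p = 0.0253), and DESeq2 called it too. Both calls rest on these few counts. With bulk RNA, fewer cells with a transcript and less of it in each cell cannot be told apart.

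Under siFOXA1.1 STAT2 and USP18 rose in both lines, IRF9 rose in RT112 and IRF2 in SCaBER, whereas no change was called for IFNAR1, IFNLR1, IRF1, SOCS1 or IRF7. In RT112, 3 of 8 genes tested were called and all 3 were higher: STAT2, IRF9 and USP18. There 29.1% of all 13462 genes tested were called, and 14.0% of all were called as higher. In SCaBER 3 of 9 were called, again all higher: STAT2, USP18 and IRF2. There 7.87% of all 13407 genes tested were called, and 3.80% of all were called as higher. The median log2 fold change of the genes tested was 0.96 in RT112 and 0.86 in SCaBER, beside -0.02 and 0.01 over all genes. Between siControl.1 and siControl.2 the median of these genes was 0.21 in RT112 and 0.81 in SCaBER, with siControl.1 higher. In SCaBER the control siRNAs alone thus differed by nearly as much, and the median there does not set siFOXA1.1 apart. Scaling to library totals alone moved the median of all genes in RT112 to -0.14 and the share of called genes that were higher from 47.96% to 37.8%, and limma on log2(TPM + 1) moved them to -0.27 and 22.6%. STAT2, IRF9 and USP18 kept their direction and call under both.

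**Figure D2:**
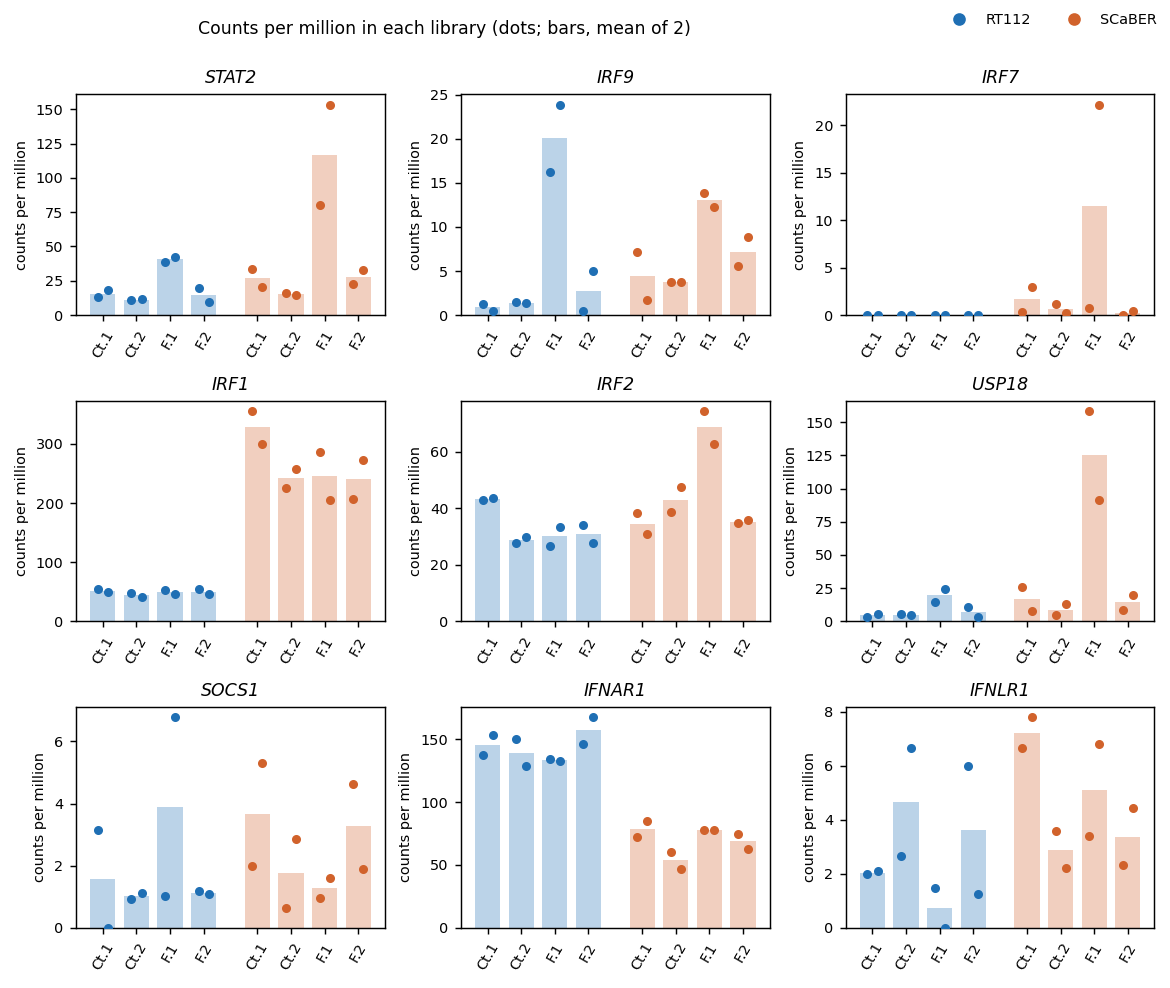
CPM of each gene in each of the 16 libraries (dots), with the mean of the 2 libraries of a siRNA as a bar, for RT112 (blue) and SCaBER (orange); Ct is siControl and F is siFOXA1. STAT2 and USP18 are highest under siFOXA1.1 in both lines, and the IRF7 bar for SCaBER siFOXA1.1 rests on 1 library.

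STAT2, the STAT specific to type I and III responses, had 13.3 and 18.1 CPM under siControl.1 in RT112, 10.8 and 11.5 under siControl.2, 39.0 and 42.3 under siFOXA1.1, and 19.5 and 9.56 under siFOXA1.2. In SCaBER the values were 33.9 and 20.7, 16.4 and 14.4, 80.1 and 153, and 22.5 and 32.6 CPM in the same order. Both siFOXA1.1 libraries thus lay above all other libraries of their line. The rise was 3.34-fold in RT112 (log2 1.74 ± 0.31 SE, edgeR adjusted p 2.39e-04) and 5.75-fold in SCaBER (log2 2.52 ± 0.30, adjusted p 1.06e-04). Within batches 1 and 2 the log2 ratio to the controls of the batch came to 1.79 and 1.69 for RT112, and to 1.81 and 3.15 for SCaBER. RNU7-40P, a pseudogene that overlaps STAT2, reached at most 11 counts in a library.

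IRF9, the DNA-binding subunit of ISGF3, was close to the limit of detection in the RT112 controls, with 10 and 3 counts under siControl.1 and 11 and 10 under siControl.2. It reached 111 and 162 counts under siFOXA1.1, and gave 3 and 37 under siFOXA1.2. The rise under siFOXA1.1 was 19.1-fold (log2 4.26 ± 0.70 SE, edgeR adjusted p 1.01e-04). In SCaBER IRF9 had 43 and 11 counts under siControl.1, 23 and 17 under siControl.2, 73 and 85 under siFOXA1.1, and 36 and 56 under siFOXA1.2. Both siFOXA1.1 libraries were above all 4 controls, but the change of 1.70 ± 0.61 (log2) did not pass the test (adjusted p = 0.111). Without SCaBER siControl.1 replicate 1, the control with 43 counts, it was 2.41 (adjusted p = 0.0354). Within batches 1 and 2 the log2 ratio came to 3.58 and 4.92 for RT112, and to 1.46 and 2.24 for SCaBER.

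USP18, the protease that removes ISG15 from proteins and blocks signalling at IFNAR2, had 3.29 and 5.59 CPM under siControl.1 in RT112, 5.19 and 4.86 under siControl.2, 14.6 and 24.3 under siFOXA1.1, and 11.1 and 3.28 under siFOXA1.2. In SCaBER it had 25.96 and 7.95, 4.71 and 12.8, 158 and 91.5, and 8.64 and 19.8 CPM in the same order. The siFOXA1.1 libraries were above all others in each line, although the SCaBER controls spanned a wide range. The rise was 4.50-fold in RT112 (log2 2.17 ± 0.49 SE, edgeR adjusted p = 0.00218) and 10.6-fold in SCaBER (log2 3.41 ± 0.45, adjusted p 2.69e-04). Within batches 1 and 2 the log2 ratio came to 1.90 and 2.36 for RT112, and to 3.88 and 3.17 for SCaBER. USP41, a close copy of USP18, was at 0 counts in all libraries, and whether reads shared by the copies were counted at all is not given in the sources used here.

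IRF2, which competes with IRF1 for the same sites, rose in SCaBER from 38.3 and 30.9 CPM (siControl.1) and 38.8 and 47.5 CPM (siControl.2) to 74.4 and 62.9 CPM under siFOXA1.1, with 34.9 and 35.8 CPM under siFOXA1.2. The siFOXA1.1 libraries did not overlap the others. The change was 1.82-fold (log2 0.86 ± 0.24 SE, edgeR adjusted p = 0.0417), and it passed the test in 11 of 20 alternative analyses. Against siControl.1 alone the adjusted p was 0.0568, against siControl.2 alone 0.202, and 6 of the 8 fits that left out a library gave adjusted p from 0.0669 to 0.167. In RT112 IRF2 had 27.8 to 43.6 CPM in the controls and 26.7 and 33.4 CPM under siFOXA1.1 (log2 -0.11 ± 0.24, adjusted p = 0.782).

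IRF7 had 4 and 153 counts under siFOXA1.1 in SCaBER, and 0 and 3 under siFOXA1.2. Replicate 1 was within the control range of 1 to 19 counts, and replicate 2 was far above it. The fitted change of 3.38 ± 1.23 (log2) did not pass the test (edgeR adjusted p = 0.116). With no filter on low counts it was called (adjusted p = 0.0149), although the change was nearly the same, at 3.39. Without replicate 2 it was -0.41 (adjusted p = 0.965), and without replicate 1 it was 4.33 (adjusted p = 0.0151).

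IRF1 had 53.7 and 46.7 CPM under siFOXA1.1 in RT112 and 286 and 206 CPM in SCaBER, inside the control ranges except for the last, which was below that of SCaBER. Its log2 fold change was 0.19 (95% interval -0.23 to 0.60, edgeR adjusted p = 0.522) and -0.16 (-0.59 to 0.27, adjusted p = 0.724). IFNAR1 had 135 and 133 CPM in RT112 and 77.5 and 77.8 CPM in SCaBER, all within the control ranges. Its intervals were -0.26 to 0.32 around 0.03 (adjusted p = 0.893) and -0.18 to 0.75 around 0.29 (adjusted p = 0.515). All 4 intervals lie within a log2 change of 1 in either direction.

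IFNLR1 and SOCS1 were too low for a firm reading. IFNLR1 had 15, 14, 20 and 48 counts in the RT112 controls and 10 and 0 under siFOXA1.1 (log2 -1.95, 95% interval -4.72 to 0.83, edgeR adjusted p = 0.294), below all controls. It was called when siFOXA1.1 replicate 1 was left out, which leaves the library at 0 alone (adjusted p = 0.0361). In SCaBER it had 40, 50, 22 and 10 counts in the controls and 18 and 47 under siFOXA1.1 (0.18, -1.42 to 1.77, adjusted p = 0.934). SOCS1, an inhibitor of JAK kinases, had 24, 0, 7 and 8 counts in the RT112 controls and 7 and 46 under siFOXA1.1 (1.75, -1.08 to 4.57, adjusted p = 0.362). In SCaBER it had 12, 34, 4 and 13 counts in the controls and 5 and 11 under siFOXA1.1 (-0.94, -3.57 to 1.68, adjusted p = 0.737).

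**Figure D3:**
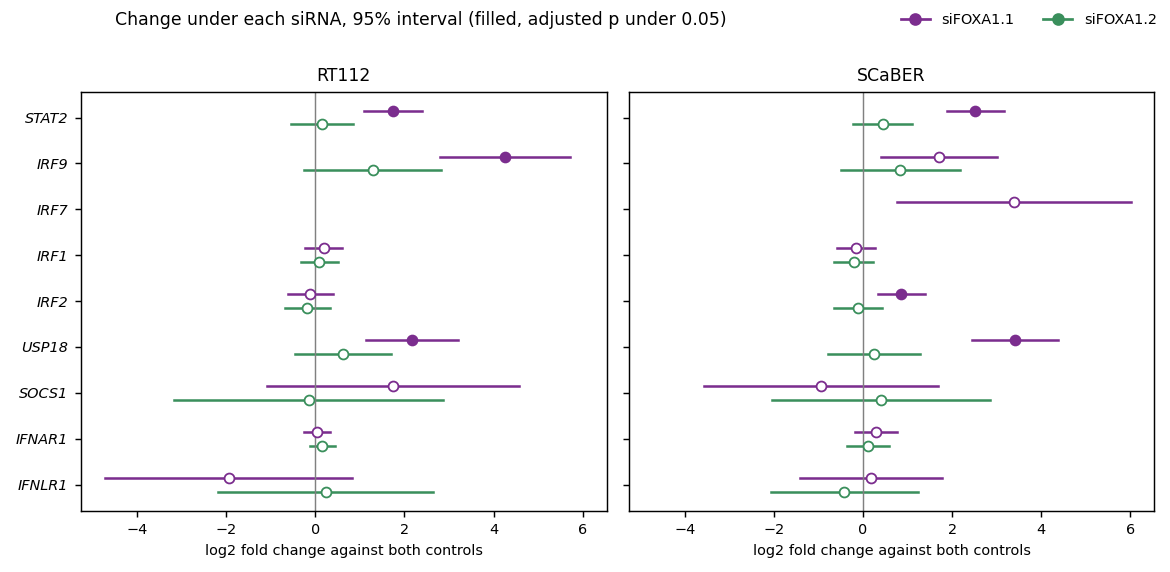
Log2 fold change of each gene under siFOXA1.1 (purple) and siFOXA1.2 (green) against both controls, with its 95% interval, in RT112 and SCaBER; filled symbols have an adjusted p under 0.05. IRF7 is not drawn for RT112, where it was at 0, nor for siFOXA1.2. The filled symbols are STAT2, IRF9 and USP18 in RT112 and STAT2, IRF2 and USP18 in SCaBER, all under siFOXA1.1.

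With siFOXA1.2 none of the genes was called in edgeR, 0 of 8 in RT112 (1.78% of all genes) and 0 of 9 in SCaBER (0.0373%), and 0 had an unadjusted p under 0.05. DESeq2, which gave an adjusted p for 5 of the 9 in SCaBER, and limma called 0 as well. In RT112 the changes were 0.15 ± 0.33 SE for STAT2 (adjusted p = 0.943), 1.29 ± 0.74 for IRF9 (adjusted p = 0.556) and 0.62 ± 0.52 for USP18 (adjusted p = 0.749). Here the batches disagreed: STAT2 and USP18 were above the controls of batch 1 (log2 ratio 0.72 and 1.42) and below those of batch 2 (-0.58 and -0.64), and IRF9 was the reverse (-1.50 and 2.56). In SCaBER the changes were 0.45 ± 0.31 for STAT2, 0.84 ± 0.63 for IRF9 and 0.25 ± 0.48 for USP18, each with adjusted p of 1.00. With the batch as a replicate block, 24 genes instead of 5 were called in SCaBER for this siRNA, and 0 of the 9.

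**Figure D4:**
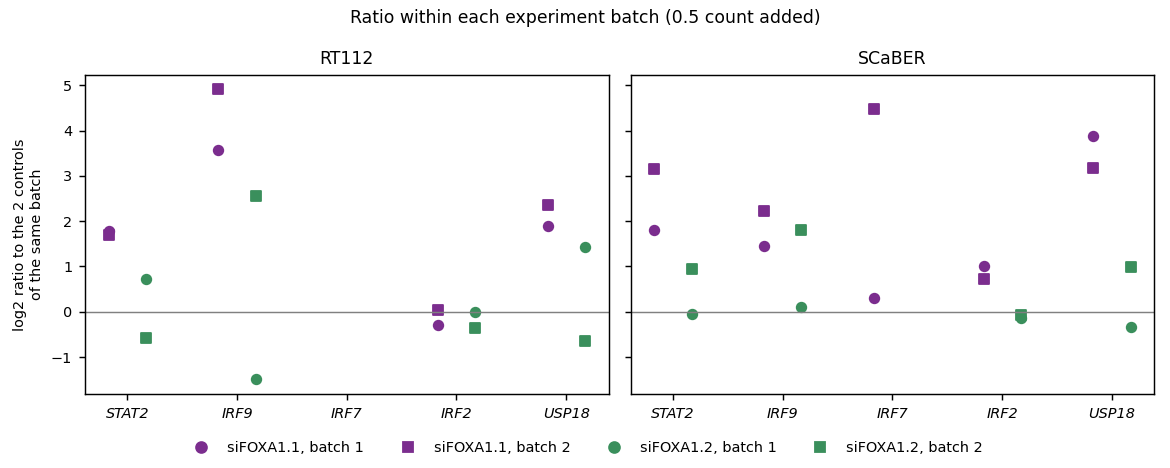
Log2 ratio of each siFOXA1 library to the mean of the 2 control libraries of the same experiment batch (circle, batch 1; square, batch 2), with 0.5 count added, under siFOXA1.1 (purple) and siFOXA1.2 (green). For STAT2, IRF9 and USP18 the siFOXA1.1 ratios are above 0 in both batches of both lines, and the RT112 siFOXA1.2 ratios fall on both sides of 0.

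In the direct comparison of the 2 siRNAs, the share of these genes called in RT112 was close to that of all genes. There STAT2 (log2 1.59 ± 0.38 SE, edgeR adjusted p = 0.00413) and IRF9 (2.97 ± 0.85, adjusted p = 0.0138) were higher under siFOXA1.1 than under siFOXA1.2, 2 of 8 genes beside 24.7% of all genes tested, while USP18 was not called (1.56 ± 0.60, adjusted p = 0.0655). In SCaBER STAT2 (2.08 ± 0.37, adjusted p = 0.00436) and USP18 (3.15 ± 0.57, adjusted p = 0.00548) were higher, 2 of 9 beside 4.13%, and IRF9 (0.86 ± 0.73, adjusted p = 0.620) and IRF2 (0.97 ± 0.29, adjusted p = 0.0813) were not called. With the batch as a replicate block 865 genes instead of 554 were called in SCaBER, and the same 2 of the 9, whereas limma on log2(TPM + 1) called 0 of the 9 and DESeq2 4. Without RT112 siFOXA1.2 replicate 2 the RT112 STAT2 value was 1.17 (adjusted p = 0.0776), and without RT112 siFOXA1.2 replicate 1 or siFOXA1.1 replicate 2 that of IRF9 was 2.09 or 2.63 (adjusted p = 0.101 and 0.0950). Without SCaBER siFOXA1.2 replicate 1, STAT2 was 1.85 (adjusted p = 0.115) and USP18 2.69 (adjusted p = 0.135).

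Between siControl.1 and siControl.2, 0 of 8 genes were called in RT112 (2.11% of all genes) and 0 of 9 in SCaBER (0.0671%) with edgeR, and DESeq2 called 0 as well. At an unadjusted p under 0.05 there was 1 in each line, IRF2 in RT112 and STAT2 in SCaBER. With a replicate block 37 genes instead of 9 were called in SCaBER, and 0 of the 9.

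When both siRNAs of a target were pooled, as in the design of the study, 0 of 7 genes were called in RT112 (0.108% of all genes) and 0 of 8 in SCaBER (0.00840%) with edgeR. At an unadjusted p under 0.05 there were 3 in each line: STAT2, IRF9 and USP18. STAT2 was at 1.14 ± 0.45 in RT112 (log2, SE, adjusted p = 0.347) and 1.77 ± 0.49 in SCaBER (adjusted p = 0.416). IRF9 was at 3.41 ± 0.94 (adjusted p = 0.259) and 1.33 ± 0.54 (adjusted p = 0.533), and USP18 at 1.60 ± 0.55 (adjusted p = 0.313) and 2.47 ± 0.72 (adjusted p = 0.416). DESeq2 called IRF9 in RT112 (adjusted p = 0.0120) and STAT2 in SCaBER (adjusted p = 0.0440), and limma called 0. With no filter on low counts, edgeR called IRF9 in RT112 (adjusted p = 0.0382) and STAT2 and USP18 in SCaBER (adjusted p 7.35e-08 and 5.78e-14). The log2 values hardly moved, at 3.39 for IRF9, 1.77 for STAT2 and 2.47 for USP18. In that SCaBER fit the IRF7 interval (0.51 to 4.09 around 2.30 ± 0.91 SE) was that of a normal distribution. The fit thus made no allowance for the small number of libraries. Its p-values are therefore not stronger evidence than those with the filter. With a replicate block 0 genes instead of 13 and 1 were called.

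None of the 8 genes with a value in both lines was called for a difference between the lines (0 of 8, edgeR). For siFOXA1.1, where 2.59% of all genes had an interaction with the line, RT112 minus SCaBER was -0.80 ± 0.46 SE for STAT2 (edgeR adjusted p = 0.452), 2.54 ± 1.04 for IRF9 (adjusted p = 0.242), -1.25 ± 0.73 for USP18 (adjusted p = 0.458) and -0.99 ± 0.34 for IRF2 (adjusted p = 0.144). IRF9 and IRF2 had an unadjusted p under 0.05, DESeq2 called 0 and limma on log2(TPM + 1) called IRF2 (adjusted p = 0.0122). That choice moved the median of all genes from -0.05 to -0.21, the direction of IRF2. It also moved the share of called genes with a positive interaction from 40% to 17.8%. For siFOXA1.2 (0.0453% of all genes) 0 were called by edgeR, DESeq2 or limma, and 0 had an unadjusted p under 0.05. The IRF7 interaction could not be estimated, since RT112 had no counts.

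The rest of the pathway was read from a list of 47 genes, of which 31 were tested in each line under siFOXA1.1. In RT112, 14 were higher and 3 lower, with a median log2 fold change of 0.61, and in SCaBER 6 were higher and 0 lower, with a median of 0.23. Over all genes 14.0% were called higher and 15.1% lower in RT112, and 3.80% and 4.07% in SCaBER. The conjugation machinery of the ubiquitin-like protein ISG15, which USP18 opposes, was higher in all 5 of its members in both lines. ISG15 itself rose 5.21-fold in RT112 (log2 2.38 ± 0.14 SE, edgeR adjusted p 2.45e-10) and 4.72-fold in SCaBER (2.24 ± 0.15, adjusted p 7.55e-07). Its activating enzyme UBA7 was at 1.92 and 1.51, its conjugating enzyme UBE2L6 at 1.93 and 1.67, the ligase HERC5 at 2.23 and 1.29, and HERC6 at 2.52 and 1.51 (log2 in RT112 and SCaBER). The UBA7 call in SCaBER was at the threshold (adjusted p = 0.04998).

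**Figure D5:**
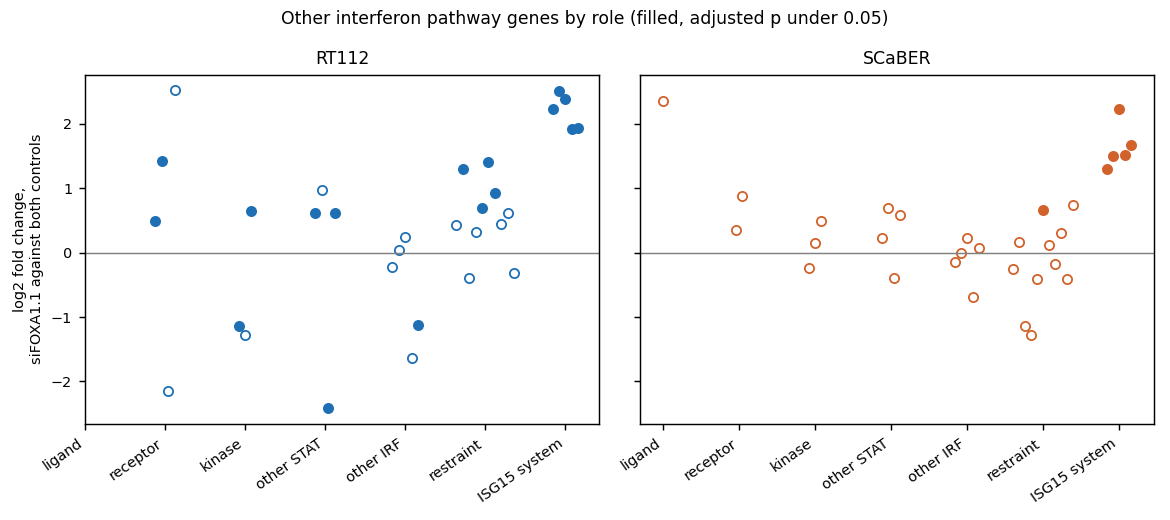
Log2 fold change of the other interferon pathway genes under siFOXA1.1 against both controls, grouped by role, in RT112 (blue) and SCaBER (orange); filled symbols have an adjusted p under 0.05. All 5 genes of the ISG15 system are filled and above 0 in both lines, and no interferon gene passed the filter in RT112.

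Of the 11 interferon genes listed, 0 passed the filter on low counts in RT112 and 1 in SCaBER, IFNL1 (log2 2.35 ± 1.37 SE, edgeR adjusted p = 0.355), named after its value was seen. The lower genes under siFOXA1.1 in RT112 included STAT5B (-2.41 ± 0.56, adjusted p = 0.00273), a mediator of cytokine and growth hormone signals, and JAK1 (-1.14 ± 0.16, adjusted p 2.34e-05), which was named after its value was seen. Of the 4 other receptor chains, all tested in RT112, IFNAR2 (0.49 ± 0.17, adjusted p = 0.0307) and IFNGR1 (1.43 ± 0.46, adjusted p = 0.0233), a chain of the interferon gamma receptor, were higher there. In SCaBER these were the 2 chains tested and neither was called (0.36 ± 0.28, adjusted p = 0.519, and 0.89 ± 0.65, adjusted p = 0.488). Both were named after their values were seen. PTPN1, a phosphatase that acts on JAK kinases, was the remaining higher gene in SCaBER (0.66 ± 0.17, adjusted p = 0.0254). It was also higher in RT112 under siFOXA1.1 (2.65-fold, edgeR adjusted p 2.02e-08). Under siFOXA1.2 PTPN1 was the 1 gene of the list called in RT112 (log2 0.46 ± 0.12, adjusted p = 0.0461).

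Among 24 genes known as targets of ISGF3, siFOXA1.1 raised 15 of 23 tested in RT112 and lowered 1, SAMD9 (log2 -1.46 ± 0.20 SE, edgeR adjusted p 1.36e-05). In SCaBER 23 of 24 were higher and IFIT5 was not called (0.83 ± 0.37, adjusted p = 0.211). Both names were picked after the values were seen. The list medians were 2.84 and 2.13, and the shares of all genes called higher were the 14.0% and 3.80% given above. With siFOXA1.2, edgeR called 0 of these in either line (5 and 3 at an unadjusted p under 0.05), and the medians were -0.02 and -0.30. Between the 2 control siRNAs in SCaBER 0 were called, 14 had an unadjusted p under 0.05 and the median was 0.69 in favour of siControl.1. Of 15 genes known to respond to IRF1, 3 of 9 tested were higher in RT112 (median 0.39) and 6 of 13 in SCaBER (median 0.75), while IRF1 itself was not called. At baseline 19 of the 24 ISGF3 targets and 10 of 12 tested IRF1 targets were lower in RT112 than in SCaBER, and 1 of each was higher, where 22.2% of all genes were lower and 21.2% higher.

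The genes whose pattern over the libraries was most like that of each member were found by Pearson's r over the 16 libraries, after each line had been centred on its own mean, among 9706 genes with a mean of at least 20 counts in each line. The points share libraries and siRNA groups, so r is a description. STAT2 was closest to TMEM87A (r = 0.95), NBR1 (0.95) and MSMO1 (0.94). IRF9 was closest to OAS2 (0.91), an antiviral 2'-5' oligoadenylate synthetase, DNAJC13 (0.90) and ZNF75A (0.90). USP18 was closest to F11R (0.91), STAT2 (0.91) and TMCC1 (0.90), and was the only member with another member among its nearest 3. IRF1 was closest to ARHGEF5 (0.90), INTS2 (0.84) and SNORD13 (0.82), IRF2 to ELOVL1 (0.91), STYK1 (0.88) and GABPB1-AS1 (0.84), and IFNAR1 to ANKRD22 (0.86), RNF170 (0.84) and KPNA5 (0.83). Between members r was 0.61 for STAT2 and IRF9 and 0.57 for IRF9 and USP18. For IRF2 it was 0.62 with USP18 and 0.56 with STAT2, and for IRF1 it was 0.24 or less with each of the other 5.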

How the data were processed

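The authors deposited raw counts per gene and TPM values of 16 3' RNA-sequencing libraries. The submitters' configuration names TrimGalore 0.6.2 (quality 20, length 10), and STAR 2.6.1a with hg38 and GENCODE 29 for alignment and counting, while the study's methods name hg19. Counts were tested with edgeR 4.0.16 in R 4.3.3 (TMM, filterByExpr by siRNA group, quasi-likelihood F test, Benjamini-Hochberg over all genes tested, threshold 0.05), per line with 4 siRNA groups, with both siRNAs pooled, and over 16 libraries for the interaction. Intervals are 95%. CPM values use library totals. Alternatives used DESeq2 1.42.0, limma 3.58.1 on log2(TPM + 1) and log2(TPM + 0.1), other scalings and filters, a replicate block, single controls and fits without each library, which kept the genes of the full fit (set after a first run had been seen). The labels give the replicate numbers as experiment batches, which pairs the libraries. Over genes, same-numbered deviations correlated at -0.01 to 0.04 in RT112 and 0.02 to 0.23 in SCaBER. The fits were also run on simulated data. These had the same spread for all genes, below that of the real fits, and no batch effect, so they were easier than the real data. Named genes were the 9 members, FOXA1, called genes of the pathway list with a mean of at least 20 counts (at most 6 per comparison by size of change), the 3 nearest patterns per member with that mean in each line, and copies or overlapping genes. Members and lists were chosen with earlier results of these data known, and the comparisons in which each member is given with a fold change were settled after a first run. Promoters are RefSeq, GRCh38.p14. Some genes are not reported here.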

Additional observations from a re-analysis of the deposited data

Results flagged for a closer look

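In 4 of the 34 sets of 4 libraries tested (1 gene, the controls or the siFOXA1 libraries of 1 line), 1 library stood apart from the other 3 by Dixon's ratio. Chance does so in about 1 in 20 sets when all 4 values come from the same normal distribution. Each set here mixes both siRNAs of a target and some values rest on few counts, so that rate need not hold. IRF9 was at 0.453 CPM (3 counts) in RT112 siControl.1 replicate 2, with the nearest control at 1.31 CPM. IRF7 was at 22.1 CPM in SCaBER siFOXA1.1 replicate 2, with the nearest siFOXA1 library at 0.758 CPM. SOCS1 was at 6.78 CPM in RT112 siFOXA1.1 replicate 2, with the nearest at 1.17 CPM. IFNLR1 was at 6.67 CPM in RT112 siControl.2 replicate 2, with the nearest control at 2.66 CPM.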

How the results depend on the processing

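In RT112 under siFOXA1.1, STAT2, IRF9 and USP18 kept direction and call in all 20 alternatives (log2 1.25 to 2.02, 2.65 to 4.73 and 1.62 to 2.51), as did STAT2 and USP18 in SCaBER (2.03 to 2.93 and 2.92 to 3.98). No member was called with siFOXA1.2 or between controls in any alternative. The replicate block changed no member call. For what follows the cause was not tested.

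Genes called in RT112 under siFOXA1.2 (239) became 146 against siControl.2 alone, 376 with no filter, 370 with DESeq2, 43 and 43 with limma on log2(TPM + 1) and log2(TPM + 0.1), and 75 in the fit of all 16 libraries. Between the RT112 controls (284) they became 449 with no filter, 429 with DESeq2, and 50 and 38 with limma. For pooled RT112 (13) they became 5 with library totals, 123 with no filter, 179 with DESeq2, 4 and 1 with limma, 0 with the replicate block, 3182 with siFOXA1.1 alone and 68 with siFOXA1.2 alone. In SCaBER under siFOXA1.1 (1055) they became 677 against siControl.1 alone, and 631 and 580 with limma. Under siFOXA1.2 (5) they became 42 with no filter, 38 with DESeq2, 1 with limma on log2(TPM + 0.1), 24 with the replicate block and 13 in the fit of all 16 libraries. For siFOXA1.1 against siFOXA1.2 (554) they became 863 with no filter, 861 with DESeq2, 230 and 215 with limma and 865 with the replicate block. Between the SCaBER controls (9) they became 91 with no filter, 17 with a mean of at least 20 counts, 71 with DESeq2, 2 and 0 with limma and 37 with the replicate block. For pooled SCaBER (1) they became 213 with no filter, 37 with DESeq2, 2 and 0 with limma, 0 with the replicate block, 745 with siFOXA1.1 alone and 3 with siFOXA1.2 alone. The interaction counts became 732 with no filter, 786 with DESeq2 and 619 with limma on log2(TPM + 1) for siFOXA1.1 (400), and 66 with no filter and 37 with DESeq2 for siFOXA1.2 (7).

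Leaving out 1 library gave 70 (without RT112 siFOXA1.2 replicate 2) to 393 (without siFOXA1.1 replicate 2) for RT112 siFOXA1.2, between the RT112 controls 64 when siControl.1 replicate 2 was missing and 472 when siFOXA1.1 replicate 2 was, and 0 to 4 for pooled RT112. It gave for SCaBER siFOXA1.1 542 when siControl.2 replicate 1 was missing and 1369 when siFOXA1.1 replicate 1 was, 0 to 27 for siFOXA1.2, 116 (without siFOXA1.2 replicate 1) to 1033 (without siFOXA1.1 replicate 1) for siFOXA1.1 against siFOXA1.2, 0 to 66 between the SCaBER controls and 0 to 3 for pooled SCaBER. The interactions ranged from 233 (without RT112 siFOXA1.1 replicate 2) to 708 (without SCaBER siFOXA1.1 replicate 2) and from 2 to 11. A group left with 1 library is assumed to vary like the others.

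Uncalled log2 changes that turned sign were as follows. With a library left out, in RT112 under siFOXA1.1 IRF2 ranged from -0.32 (without siFOXA1.1 replicate 2) to 0.066 (without replicate 1), SOCS1 from -0.22 (without siFOXA1.1 replicate 2) to 4.99 and IFNAR1 from -0.026 to 0.096. In RT112 under siFOXA1.2 STAT2 ranged from -0.45 (without siFOXA1.2 replicate 1) to 0.58 (without replicate 2), IRF9 from -1.32 (without replicate 2) to 2.16 (without replicate 1) and USP18 from -0.50 (without replicate 1) to 1.24 (without replicate 2). In SCaBER under siFOXA1.1 IRF7 ranged from -0.41 (without siFOXA1.1 replicate 2) to 4.49, IRF1 from -0.45 to 0.090 and IFNLR1 from -0.36 to 0.56, and under siFOXA1.2 USP18 ranged from -0.46 to 0.81. At baseline IRF2 ranged from -0.20 to 0.026. With other choices, in RT112 under siFOXA1.1 IRF1 was -0.11 and -0.12 with limma, IRF2 was 0.22 against siControl.2 alone, and IFNAR1 was -0.029 against siControl.1 alone, -0.090 with library totals, and -0.27 and -0.27 with limma. Against siControl.1 alone STAT2 was -0.13 in RT112 and USP18 -0.23 in SCaBER under siFOXA1.2, and IFNLR1 was -0.47 in SCaBER under siFOXA1.1, where IRF1 was 0.053 against siControl.2 alone.

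Of the calls for siFOXA1.1 against siFOXA1.2, IRF9 in RT112 was lost with limma on log2(TPM + 0.1) (adjusted p = 0.0571), and STAT2 and USP18 in SCaBER were lost with limma on log2(TPM + 1) (adjusted p = 0.0636 and 0.0653). USP18 in RT112 was called without siFOXA1.1 replicate 1 (adjusted p = 0.0368) or siFOXA1.2 replicate 1 (adjusted p = 0.0235). At baseline USP18 was lost in 5 of the fits that left out a library (adjusted p up to 0.216). Depth limits IRF7, IRF9 in RT112, SOCS1 and IFNLR1, which had libraries at or near 3 counts.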
